A study of Mus musculus with 16 samples.

Results

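Interferon response genes are genes whose transcription rises when a cell meets interferon, together with the regulators of that response. A list of 46 such genes was followed here in mouse liver lacking matrin-3 in hepatocytes. The list was given by gene symbol and mixed genes induced by type I and by type II interferon; no measured value was used in its rule. All 46 genes were found among the 23167 Ensembl identifiers present in both deposited count tables, and all 46 passed the filter on low counts in every comparison.

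Type I interferons (alpha and beta) and type II interferon (gamma) act through separate cell surface receptors, whose attached Janus kinases phosphorylate STAT transcription factors. Complexes of STAT proteins with IRF9 bind the interferon-stimulated response element (ISRE), whereas STAT dimers bind the gamma-activated sequence (GAS). The induced proteins sense foreign nucleic acid, degrade viral RNA, block translation, attack the vacuoles of intracellular microbes, and load peptides onto MHC class I. In liver, hepatocytes as well as resident macrophages, endothelial cells and lymphocytes can respond.

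Total liver RNA, enriched for polyadenylated transcripts, was sequenced from 16 mice, 4 floxed and 4 LKO of each sex. LKO denotes a liver-specific knockout made by crossing floxed Matr3 with albumin-Cre, a transgene whose albumin promoter drives the recombinase in hepatocytes. The values from whole liver do not show whether any other liver cells lost Matr3 as well. The floxed littermates served as controls and carry the floxed Matr3 allele as well. Every mouse, controls included, ate a 60% fat diet from 7 weeks of age for 16 weeks and was fasted for 12 h before collection, so no lean or fed liver enters these values. Mice were numbered 1 to 4 (floxed) and 5 to 8 (LKO) within each sex and are separate animals. The sexes were deposited as separate tables, so sex and table cannot be told apart. In bulk tissue, fewer cells of a type and less RNA per cell cannot be told apart.

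Library totals ran from 30495505 to 36496193 counts, and the 46 genes took between 0.13 and 0.221% of them. Matr3 itself was at 57.8 ± 3.72 CPM (counts scaled to library size; SD, n = 4) in floxed males and 35.4 ± 1.55 in LKO males, and at 58.1 ± 4.95 and 38.1 ± 1.36 in females. Every LKO liver was below every floxed liver of its sex (exact permutation test, two-sided, p = 0.0286 in each sex, the smallest that 70 regroupings allow). Summed hepatocyte markers lay between 52482 and 75404 CPM in the floxed livers, as the tissue label says. In LKO females the same sum was lower, at 27834 to 44205 CPM, a sum set by its most abundant genes. Of the 5 hepatocyte markers, Alb and Ttr were called lower in LKO females and Hnf4a higher, and the median log2 fold change of the 5 was 0.06. The calls of Alb, Ttr and Hnf4a were lost in 5, 6 and 4 of the 8 fits that left out 1 liver.

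The bases in front of these genes were searched for both motifs. RefSeq promoters of 300 bases (250 before to 50 after the start site, build GRCm38.p6) were found for 35 of the 46. An ISRE match, GAAANNGAAA on either strand, was present in 20 of the 35 (57.1%), against 1079 of all 27025 genes in the promoter table (3.99%). A GAS match, TTCNNNGAA, which reads the same on both strands and may overlap an ISRE match, was present in 11 of the 35 (31.4%) against 9.55% of all genes. Of the 7 interferon-inducible GTPases with a promoter entry, 6 held an ISRE match, as did 3 of 4 IFIT genes and 3 of 5 OAS genes. A match is a run of letters and does not show that a factor binds there. GENCODE starts Gbp2 and Irgm1 further upstream than RefSeq, so their stretches lie partly or wholly inside the GENCODE gene. The following stretches of 30 bases are shown because they belong to genes on which the results turn; each reads 5′ to 3′ on the strand of its gene, and capitals mark the ISRE match nearest the start site. The stretches of Gbp3, Irgm1 and Isg15 each hold a further match that overlaps it and is not marked.
Gbp2 (chr3:142620594-142620623, plus strand): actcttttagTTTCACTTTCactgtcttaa
Gbp3 (chr3:142559995-142560024, plus strand): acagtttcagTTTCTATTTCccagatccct
Igtp (chr11:58199512-58199541, plus strand): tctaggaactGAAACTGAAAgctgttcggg
Irgm1 (chr11:48871425-48871454, minus strand): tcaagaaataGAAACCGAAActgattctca
Ifit1 (chr19:34640794-34640823, plus strand): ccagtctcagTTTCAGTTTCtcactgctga
Ifit3 (chr19:34583397-34583426, plus strand): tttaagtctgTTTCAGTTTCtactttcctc
Isg15 (chr4:156200865-156200894, minus strand): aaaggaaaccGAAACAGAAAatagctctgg
Oas3 (chr5:120777715-120777744, minus strand): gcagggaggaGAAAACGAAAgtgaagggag

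The first question was whether loss of hepatocyte Matr3 altered these genes in male liver. It did so for none of the 46 at an adjusted p under 0.05 (edgeR quasi-likelihood test, Benjamini-Hochberg over all 15355 genes tested), a threshold called here simply the call. In that comparison 1.04% of all genes were called. At an unadjusted p under 0.05, 5 members were lower and 0 higher in edgeR, beside 6.46% of all genes lower, and DESeq2 and limma-voom also called 0 members. By value 39 of the 46 lay below 0, with a median log2 fold change of -0.16, where 51.6% of all genes lay below 0 and their median was -0.01. In 3 members, Stat2, Mx2 and Bst2, every LKO male was below every floxed male, an order that 4.17% of all genes showed.

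In females the same comparison called 3 members lower and 0 higher, beside 4.85% of all 15432 genes called lower. The 3 were Gbp2, Gbp3 and Igtp, all of them GTPases that interferon gamma induces. By value 41 of the 46 lay below 0, with a median of -0.28, whereas the median of all genes was 0.00. A log2 fold change of -0.5 or lower was reached by 12 members (10.5% of all genes). Only in Irgm1 was every LKO female below every floxed female, an order shown by 8.31% of all genes.

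Across both sexes together, 3 members were called lower: Gbp6, Irgm1 and Ifit1. There 4.5% of all genes were called lower. The difference between the female and the male effect was tested directly, and it was called for 0 of the 46 in edgeR, DESeq2 and limma-voom, where edgeR called 4.42% of all genes. At an unadjusted p under 0.05 the edgeR difference was negative for 2 members and positive for 0. By value the female effect lay further below 0 than the male effect for 37 members, with a median difference of -0.14 on the log2 scale. The 2 sexes' effects therefore cannot be said to differ for any single member with all 16 livers. In the plot of the knockout effect in males against females, 36 members lie below 0 in both sexes.

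**Figure D1:**
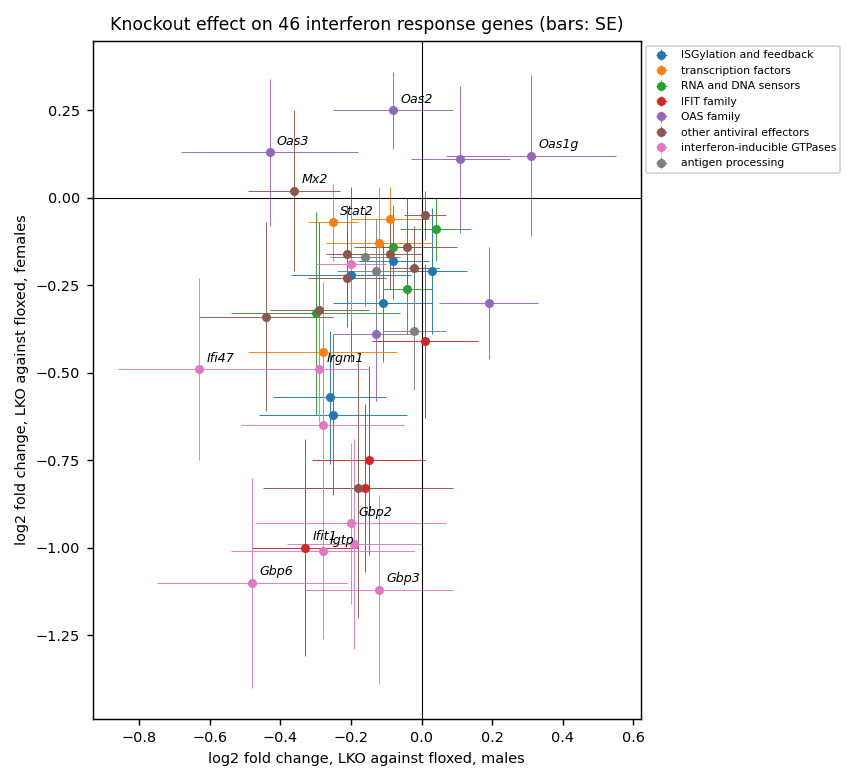
Log2 fold change of LKO against floxed livers in males (horizontal) and females (vertical) for the 46 interferon response genes, coloured by role, with bars of 1 SE from the edgeR fit of each sex. Of the 46 points, 36 lie below 0 on both axes, and the GTPases Gbp3, Gbp6 and Igtp have female values of -1.12, -1.10 and -1.01.

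Individual livers varied along the whole list. The median member in female LKO livers 5 and 8 was at -0.59 and -0.57 on the log2 scale relative to the floxed female mean, whereas LKO liver 6 was at -0.20 and LKO liver 7 at 0.08. Female LKO 7 was the highest of its group for 40 of the 46 members, and female floxed 4 was the lowest of its group for 30. Among males, floxed 2 was the lowest of its group for 35 members, with a median of -0.30, and floxed 1 the highest for 28, with a median of 0.27; the labels give these mice numbers apart from those of the other males. The median over all genes stayed between -0.01 and 0.01 in each of the 16 livers. In the heat map of all 46 genes, female LKO 8 lies below the floxed mean for all 46 members and male floxed 2 for 45, whereas female LKO 7 lies below it for 16.

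**Figure D2:**
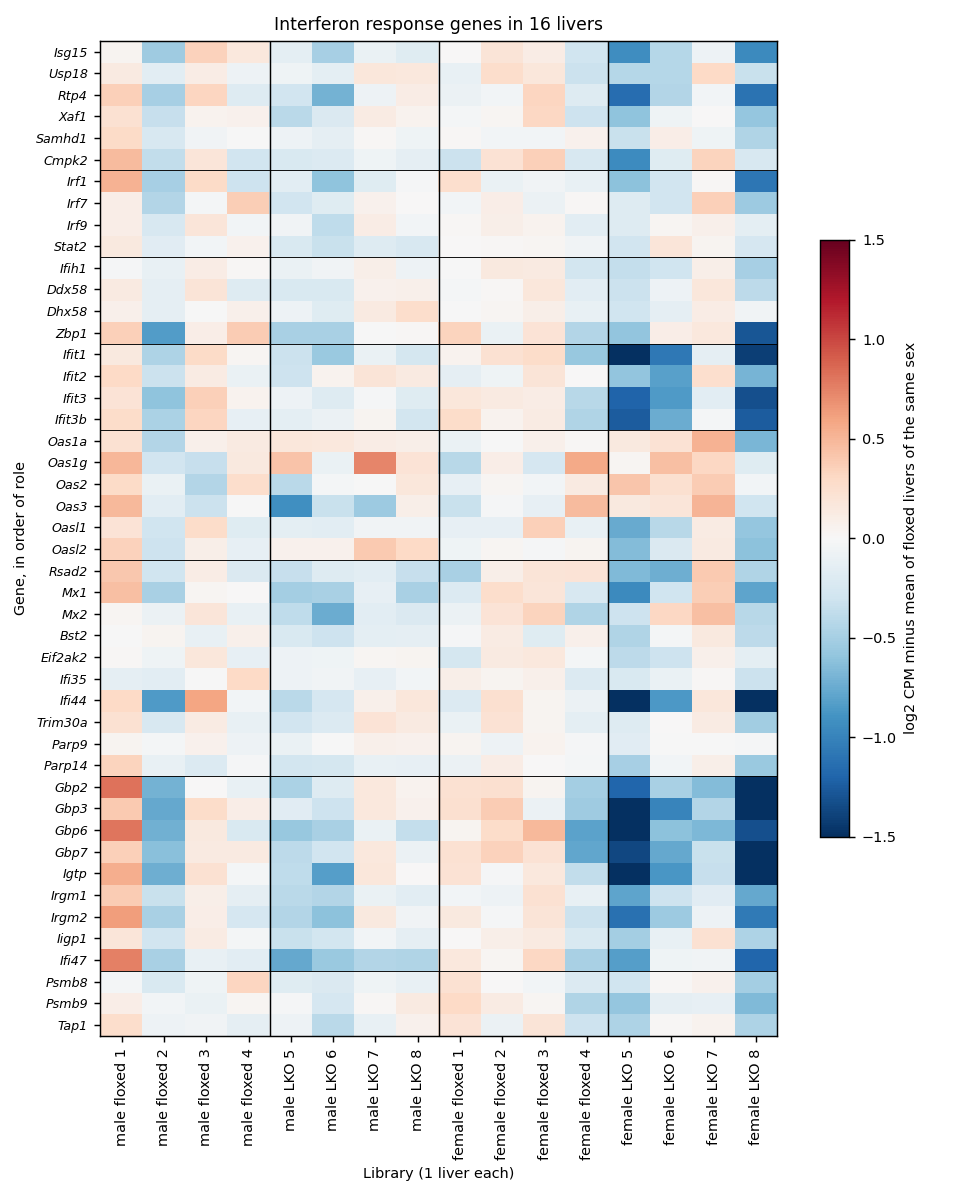
Each row is an interferon response gene and each column 1 liver; colour gives log2 CPM minus the mean of the 4 floxed livers of the same sex, with the colour scale ending at -1.5 and 1.5. Female LKO livers 5 and 8 are blue over most rows, female LKO 7 is near white (median 0.08), and male floxed 2 is blue (median -0.30).

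Because single livers moved the list so widely, the counts are given without them. Without female LKO 7, 19 members were called lower in females, beside 7.78% of all genes. Without both female floxed 4 and female LKO 7, the count was 22 in females (9.79% of all genes) and 23 across both sexes (9.07%). The difference of the effects was then called, towards the female side, for 9 members, Ifit1, Ifit2, Ifit3, Ifit3b, Gbp3, Gbp7, Ifih1, Usp18 and Psmb9 (6.77% of all genes), and for 6 members without LKO 7 alone (4.93%). These 2 livers were singled out from earlier results of the same data, so the larger counts are not independent support. Leaving out any of female floxed 1, 2 or 3 or LKO 5 or 8 instead left 0 members called in females, and leaving out LKO 6 left 1. With all livers kept, DESeq2 called 11 members lower in females, 7 of them GTPases, beside 7.91% of all genes.

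The immunity-related and guanylate-binding GTPases form the class with the lowest values. These proteins assemble on the vacuoles of intracellular bacteria and parasites and help to disrupt them. All 9 lay below 0 in both sexes, with a median log2 fold change of -0.28 in males and -0.93 in females. Females called 3 of the 9 lower, males 0, and the mean of both sexes 2. The shares of all genes called lower were 4.85%, 0.514% and 4.5%.

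Gbp2 (ENSMUSG00000028270, chr3:142620602-142638008, GRCm38) encodes a guanylate-binding protein that coats such vacuoles. It was at 17.6, 17.7, 15.4 and 10.5 CPM in floxed females 1 to 4 and at 6.55, 10.7, 9.53 and 5.25 in LKO females 5 to 8. Only LKO 6 reached above floxed 4. The level in LKO females was 52.3% of floxed (log2 fold change -0.93 ± 0.23 SE, adjusted p = 0.0367). Floxed males had 21.4, 7.41, 12.3 and 11.3 CPM and LKO males 8.74, 10.7, 13.7 and 12.6. The male groups overlapped fully within the span of floxed 1 and floxed 2, and the male value of -0.20 became 0.14 without floxed 1.

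Gbp3 (ENSMUSG00000028268, chr3:142560026-142573209), a neighbour of Gbp2, was at 39.4, 43.7, 31.4 and 23.1 CPM in floxed females and at 11.7, 16.8, 24.6 and 10.4 in LKO females. LKO 7 alone stood above the lowest floxed female. The LKO level was 46.1% of floxed (-1.12 ± 0.27, adjusted p = 0.0341). In males it was at 23.7, 10.6, 21.9 and 19.3 CPM in floxed and 16.1, 14.5, 20.1 and 18.9 in LKO livers, and the LKO values lay inside the floxed range.

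Igtp (ENSMUSG00000078853, chr11:58199556-58207591) encodes an immunity-related GTPase also known as Irgm3. Its counts were 82.4, 69.9, 79.2 and 55.0 CPM in floxed females and 24.8, 38.6, 55.6 and 24.0 in LKO females. Here too LKO 7 lay just above floxed 4 while the other LKO livers were below all floxed ones. The LKO level was 49.8% of floxed (-1.01 ± 0.25, adjusted p = 0.0369). Floxed males showed 83.3, 34.3, 66.7 and 56.0 CPM and LKO males 44.0, 32.2, 64.2 and 57.4, with wide overlap. Igtp and Irgm2 overlap on the same strand by 162 exon bases, so part of their counts could be shared. The female calls of Gbp2, Gbp3 and Igtp were each lost without any 1 of floxed 1, 2 or 3 or LKO 5 or 8, and those of Gbp3 and Igtp also without LKO 6, with adjusted p up to 0.103, 0.0982 and 0.103.

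Irgm1 (ENSMUSG00000046879, chr11:48861968-48871683) controls the other members of its family and supports autophagy. It was at 72.1, 69.9, 86.9 and 68.3 CPM in floxed females and 42.8, 59.6, 65.6 and 43.5 in LKO females, without overlap. Floxed males had 100 (liver 1), 61.1, 82.1 and 70.0 CPM and LKO males 58.2, 56.7, 71.6 and 69.1. These male groups overlapped. Over both sexes the log2 fold change was -0.39 ± 0.11 (adjusted p = 0.039).

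Gbp6 (ENSMUSG00000104713, chr5:105270702-105293698), another guanylate-binding protein, had 8.94, 10.4, 12.2 and 4.93 CPM in floxed females and 2.56, 5.64, 5.42 and 3.45 in LKO females. LKO 6 and 7 lay above floxed 4. Floxed males were at 21.2, 7.32, 13.5 and 10.3 CPM and LKO males at 8.19, 8.67, 11.3 and 9.43, inside the floxed span. Over both sexes it was lower by 0.79, a log2 fold change of -0.79 ± 0.22 (adjusted p = 0.0391). Gbp6 shares 65% of its 50-base transcript words with the predicted gene Gm43302, so its count is uncertain where reads could be split between them. The calls over both sexes of Gbp6 and Irgm1 were each lost in 10 of 16 leave-one-out fits, with adjusted p up to 0.0814 and 0.0831. The remaining GTPases, Gbp7, Irgm2, Iigp1 and Ifi47, ranged from -0.99 to -0.19 in females and from -0.63 to -0.19 in males, none of them called.

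**Figure D3:**
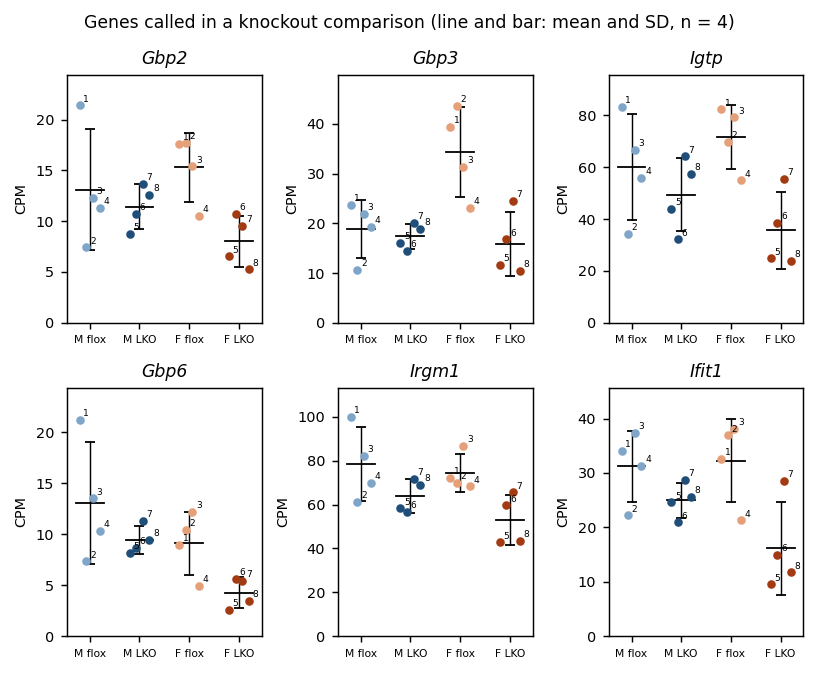
CPM in each liver for the 6 genes called in females or over both sexes. The number beside a point is the replicate number within each sex, the line the mean and the bar the SD of 4 livers. In females, LKO 7 lies above floxed 4 for Gbp3, Igtp and Ifit1, and the Irgm1 groups do not overlap.

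Beside these lower GTPases in females, markers of several cell types moved as well. Sinusoidal endothelial markers summed to 194 to 208 CPM in floxed females and 131 to 171 in LKO females. Of the 7, 5 were called lower, beside 4.85% of all genes. The calls of Lyve1, Kdr and Clec4g were lost in 8, 5 and 1 of 8 leave-one-out fits, and those of Oit3 and Fcgr2b in 0. In males these markers summed to 160 to 225 CPM in floxed and 207 to 237 in LKO livers, with 0 called. Stellate cell markers were at 105 to 116 CPM in floxed and 75.1 to 80.8 in LKO females, with 2 of 5 called lower. Of these 2 calls, that of Lrat was lost in 4 of 8 leave-one-out fits and that of Reln in 0. The dendritic cell sum was 15.4 to 19.3 CPM in floxed and 9.82 to 13.3 in LKO females. Zbtb46 was the marker called lower, and its call was lost in 4 of 8 leave-one-out fits. T cell markers summed to 3.67 to 7.31 CPM in floxed and 2.81 to 7.83 in LKO females, NK cell markers to 4.36 to 6.44 and 2.93 to 6.82, and 0 of either list were called. Kupffer cell markers stood at 600 to 945 and 693 to 1107 CPM, again with 0 of 8 called. Of 4 monocyte markers, Itgam was called higher in LKO females (1.24, adjusted p = 0.0481), a call lost in 6 of 8 leave-one-out fits. The monocyte list had a median log2 fold change of 0.08. Its sum overlapped between genotypes, at 99.1 to 148 CPM in floxed and 102 to 159 in LKO females. Neutrophil markers summed to 14.6, 11.3, 15.2 and 72.6 CPM in floxed females 1 to 4 and to 74.2, 109, 45.9 and 26.8 in LKO females, with 0 of 5 called and a median log2 fold change of 1.30. Floxed 4, the floxed liver lowest for 30 members, was thus the floxed liver highest for neutrophil markers. Among LKO females the order was otherwise: LKO 8, lowest of its group for 26 members, also had the lowest neutrophil sum, 26.8 CPM. The cholangiocyte gene Epcam was called lower in LKO females (-0.87, adjusted p = 0.0476), a call lost in 7 of 8 leave-one-out fits. None of the 7 endothelial, 5 dendritic or 7 T cell markers was at 0 in any liver, while Eomes of the NK list and Ly6g of the neutrophil list were at 0 in some. The part of these cell markers in the lower GTPase values was not tested.

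IFIT proteins bind viral RNA that lacks a self cap and block its translation. The class had a median log2 fold change of -0.15 in males and -0.79 in females, with 4 of 4 members below 0 in females. Ifit1 (ENSMUSG00000034459, chr19:34640871-34650009) was at 32.6, 36.9, 38.1 and 21.3 CPM in floxed females and 9.51, 14.9, 28.5 and 11.7 in LKO females. LKO 7 stood above floxed 4 and the other LKO livers were below all floxed ones. In males Ifit1 was at 34.1, 22.2, 37.4 and 31.3 CPM in floxed and 24.6, 20.9, 28.7 and 25.6 in LKO livers, with overlap through floxed 2. It was the only member of the class called, over both sexes at -0.66 ± 0.19 (adjusted p = 0.0425), and that call was lost in 13 of 16 leave-one-out fits (adjusted p up to 0.0877). In females alone the level was 50.2% of floxed, which missed the threshold at adjusted p = 0.0732.

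Ifit3, a partner of Ifit1, was at 38.4, 37.6, 37.1 and 25.5 CPM in floxed females and 14.9, 18.9, 30.7 and 13.7 in LKO females. Again LKO 7 and floxed 4 were the livers that crossed. Floxed males showed 39.6, 22.5, 44.0 and 35.5 CPM around the LKO values of 32.6, 30, 34.0 and 30.3. The female log2 fold change was -0.83 ± 0.24 (adjusted p = 0.056) and the male one -0.16 ± 0.17. Ifit3 and Ifit3b share 51.2% and 44.5% of their 50-base words, so their counts are uncertain where reads could be split. Ifit2 and Ifit3b were at -0.41 and -0.75 in females and were not called.

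The members that encode transcription factors, Irf1, Irf7, Irf9 and Stat2, had medians of -0.19 in males and -0.10 in females, with 0 called by knockout. Irf1, a factor induced by interferon gamma, was at 62.3, 49.0, 50.6 and 48.6 CPM in floxed females and 34.2, 42.9, 53.2 and 24.7 in LKO females, where LKO 7 overlapped the floxed range. In males it was at 50.7, 25.1, 43.3 and 28.6 CPM in floxed and 31.7, 23.3, 31.3 and 35.1 in LKO livers, overlapping widely. Its female value was -0.44 ± 0.20 (adjusted p = 0.177).

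Stat2, a transcription factor of type I signalling, was 1 of the 3 members without overlap in males. Floxed males were at 101 (liver 1), 80.9, 88.5 and 94.9 CPM and LKO males at 77.7, 72.1, 79.3 and 77.2. Floxed females had 107, 108, 109 and 102 CPM and LKO females 87.3, 121, 110 and 89.1, a spread on both sides of the controls. The male log2 fold change was -0.25 ± 0.07 (adjusted p = 0.165) and the female one -0.07 ± 0.11.

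Sensors detect foreign RNA and DNA in the cytoplasm. Ifih1 (MDA5, a sensor of long double-stranded RNA) was at 40.9, 45.6, 45.3 and 34.1 CPM in floxed females and 32.2, 33.5, 43.9 and 29.1 in LKO females, with overlap. In males the values were 43.6, 41.0, 47.9 and 44.9 CPM in floxed and 41.3, 42.8, 47.1 and 41.9 in LKO livers, hardly apart (-0.04 ± 0.07). Zbp1, which senses Z-form nucleic acid and can start necroptosis, was at 30.5, 22.5, 27.9 and 17.9 CPM in floxed and 16.0, 25.9, 27.0 and 9.89 in LKO females. Floxed males had 18.1, 7.84, 15 and 18.3 CPM of Zbp1 and LKO males 10, 10, 14 and 14.2. Both genes overlapped between genotypes in each sex, and 0 of the 4 sensors were called. Ddx58 (RIG-I) and its relative Dhx58 were at -0.14 and -0.09 in females.

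The class built around Isg15 and feedback genes was also free of calls by knockout, with medians of -0.16 in males and -0.26 in females. Isg15 is a ubiquitin-like protein attached to other proteins during the response, and Usp18 removes it. Isg15 was at 22.9, 26.1, 24.7 and 18.6 CPM in floxed and 12.0, 17.0, 21.7 and 11.8 in LKO females, where LKO 7 alone was above floxed 4. In males Isg15 was at 23.1, 15.4, 28.4 and 25.0 CPM in floxed and 20.3, 15.8, 21.0 and 19.7 in LKO livers. The female value was -0.57 ± 0.19 (adjusted p = 0.0911). Rtp4, induced by type I interferon, had 23.7, 24.4, 31.6 and 21.9 CPM in floxed and 11.3, 18.5, 24.5 and 11.7 in LKO females. Its male values were 26.6, 14.6, 25.9 and 18.1 CPM in floxed and 16.9, 12.6, 19.7 and 22.4 in LKO livers. LKO 7 overlapped the floxed range, and the female value of -0.62 ± 0.23 was not called (adjusted p = 0.118).

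Antigen processing members were Psmb8 and Psmb9, catalytic subunits of the immunoproteasome, and Tap1, a subunit of the peptide transporter. None of the 3 was called in either sex. Psmb9 was at 37.9, 33.7, 31.5 and 22.5 CPM in floxed and 20.7, 28, 28.2 and 19.5 in LKO females, overlapping through floxed 4. Its male values were 32.5, 29.6, 28.4 and 30.9 CPM in floxed and 29.8, 25.5, 30.6 and 33.4 in LKO livers. Psmb8 was at 62.0, 53.2, 51.3 and 45.7 CPM in floxed and 42.9, 53.6, 55.0 and 37.1 in LKO females. Floxed males had 40.7, 35.5, 39.8 and 51.9 CPM of Psmb8 and LKO males 36.7, 35.8, 39.6 and 38.5. The groups overlapped for both genes. Psmb9 and Tap1 overlap on opposite strands by 212 bases, and Psmb8 overlaps the opposite-strand gene Gm20496 by 498; the kit marks strand, but the strand setting of the counting is not given in the sources used here.

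Among the other antiviral effectors, Mx2 and Bst2 were the members besides Stat2 whose male groups did not overlap. Mx2, a dynamin-like GTPase, was at 9.93, 9.17, 11.0 and 8.99 CPM in floxed and 7.46, 5.80, 8.75 and 8.38 in LKO males (-0.36 ± 0.13, adjusted p = 0.271). In females it was at 8.66, 10.6, 11.6 and 6.68 CPM in floxed and 7.41, 11.4, 12.6 and 6.87 in LKO livers (0.02 ± 0.23), with full overlap. Bst2 (tetherin) holds budding virus at the cell surface. It was at 144, 149, 135 and 153 CPM in floxed and 123, 116, 131 and 132 in LKO males (-0.21 ± 0.06, adjusted p = 0.185). In females Bst2 was at 150 (liver 1), 165, 133 and 160 (liver 4) CPM in floxed and 111, 149, 168 and 116 in LKO livers, with LKO 7 the highest of all. Divided by exon length, Bst2 also had the highest level of the list, 161 CPM per kb in floxed males, ahead of Iigp1 at 70.8 and Isg15 at 30.4.

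OAS enzymes make short 2′-5′ oligoadenylates that activate the nuclease RNase L. The OAS and OAS-like members had median knockout values of 0.02 in males and 0.11 in females, with 0 of 6 called. In females the OAS-like genes Oasl1 and Oasl2 were at -0.39 and -0.30. Oas1a, Oas1g, Oas2 and Oas3 ran from 0.11 to 0.25. Oas2 was at 13.6, 15.1, 14.4 and 16.3 CPM in floxed and 19.7, 17.5, 19.3 and 14.4 in LKO females (0.25 ± 0.11, adjusted p = 0.171). Floxed males had 9.75, 7.44, 5.89 and 9.62 CPM and LKO males 6.04, 7.85, 7.98 and 9.04. The genotypes overlapped in each sex, but every floxed female was above every floxed male.

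That sex comparison, floxed females against floxed males, called 10 members higher and 1 lower, beside 11.3% of all genes higher and 11.6% lower. The 10 were Gbp3, Irf7, Oas1a, Oas1g, Oas2, Oas3, Oasl2, Parp14, Samhd1 and Trim30a, and the 1 lower was Ifi35. OAS genes made up 5 of the 10, with a class median log2 difference of 0.78. Oas2 differed by 0.86 ± 0.15 (adjusted p = 0.000983).

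Oas3 was at 4.25, 5.30, 4.92 and 7.48 CPM in floxed females and 3.80, 2.40, 2.13 and 2.69 in floxed males. The floxed groups did not overlap (0.99 ± 0.24, adjusted p = 0.00736). In LKO livers Oas3 was at 5.93, 6.12, 7.65 and 4.36 CPM in females and 1.39, 2.11, 1.82 and 2.86 in males. Neither sex's LKO group was clear of its floxed group. Oasl2, an OAS-like protein, was at 13.4, 14.2, 13.8 and 14.4 CPM in floxed females and 11.3, 7.17, 9.42 and 8.13 in floxed males, without overlap (0.63 ± 0.16, adjusted p = 0.0112). LKO livers had 8.83, 12.0, 15.4 and 9.09 CPM of Oasl2 in females and 9.26, 9.31, 11.7 and 11.0 in males. Those sets overlapped.

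Samhd1 hydrolyses deoxynucleotides and so starves viral reverse transcription. It was at 51.9, 50, 49.8 and 53.5 CPM in floxed females and 44.4, 30.8, 35.2 and 36.4 in floxed males, without overlap (0.48 ± 0.11, adjusted p = 0.00569). LKO livers were at 40.7, 54.7, 49.0 and 37.4 CPM in females and 34.5, 33.1, 36.7 and 34.8 in males. Every female LKO liver was thus above the highest male LKO liver. The calls of Oas2, Oas3, Oasl2 and Samhd1 held in all 24 alternatives tried.

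Parp14, an ADP-ribosyltransferase, was at 47.7, 54.6, 51.0 and 49.7 CPM in floxed females and 48.4, 35.6, 33.1 and 37.7 in floxed males. Male floxed 1 lay within the female range, and the value was 0.39 ± 0.13 (adjusted p = 0.0467). In LKO livers Parp14 was at 36.0, 49.4, 53.8 and 34.4 CPM in females and 31.5, 31.8, 35.5 and 35.1 in males. Ifi35, an interferon-induced protein with a leucine zipper, was the reverse case, at 26.8, 26.0, 26.7 and 22.0 CPM in floxed females and 28.7, 28.1, 31.2 and 38.4 in floxed males (-0.32 ± 0.10, adjusted p = 0.0296). LKO livers had 21.6, 23.7, 25.7 and 20.2 CPM of Ifi35 in females and 29.6, 30.3, 28.7 and 30.4 in males. The floxed groups did not overlap, although 290 exon bases of Ifi35 (16.8%) lie under the opposite-strand gene Gm11626. Gbp3 was higher in floxed females by 0.87 ± 0.27 (adjusted p = 0.0287). The calls of Parp14, Ifi35 and Gbp3 were lost in 13, 5 and 5 of 24 alternatives, with adjusted p up to 0.134, 0.103 and 0.108. Oasl1, the other OAS-like gene, had no call and was at 15.6, 15.5, 21.7 and 15.6 CPM in floxed females, 10, 12.6, 18.5 and 11.3 in LKO females, 23.8, 16.7, 24.9 and 18.2 in floxed males and 18.6, 18.4, 19.8 and 19.8 in LKO males.

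Oas1a and Oas1g, at 0.71 and 1.09, share 57.6% and 45.2% of their 50-base words, so counts could be split between them. Kupffer cell and macrophage markers also differed between the floxed groups, summing to 600 to 945 CPM in females and 206 to 334 in males. Of these, 7 of 8 were called higher, as were 4 of 5 neutrophil markers tested, beside 11.3% of all genes. Their part in the higher OAS values was not tested.

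**Figure D4:**
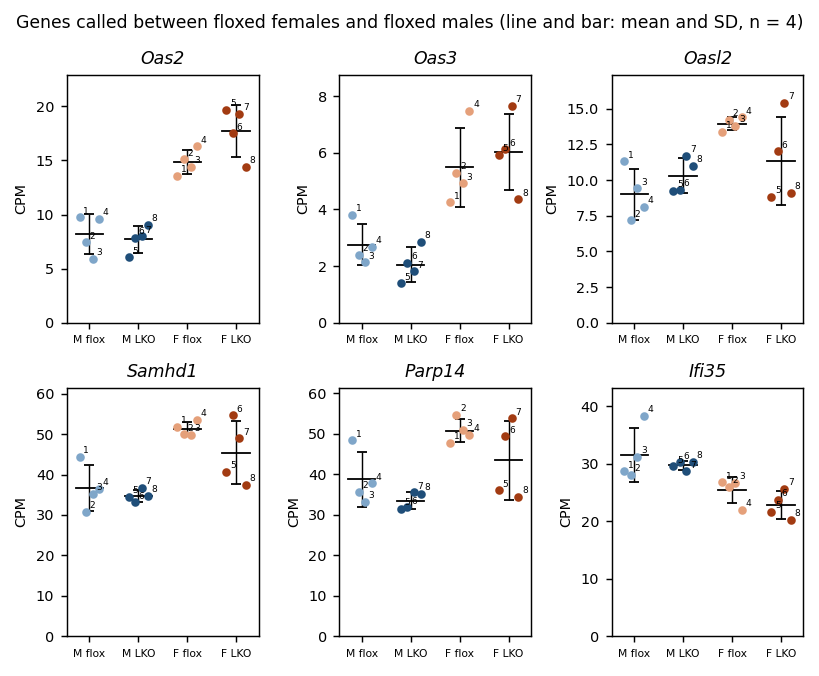
CPM in each liver for 6 of the genes called between floxed females and floxed males. The number beside a point is the replicate number within each sex, the line the mean and the bar the SD of 4 livers. For Oas2, Oas3, Oasl2 and Samhd1 every floxed female lies above every floxed male, and for Ifi35 every floxed female lies below.

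The genes varied together from liver to liver within groups. After each group's mean was removed, the median Pearson r over the 16 livers was 0.66 among the 1035 pairs of members, and 71.8% of the pairs were above 0.5. Among all 130015875 pairs of genes tested, the median was -0.00 and 5.99% were above 0.5. The GTPases had a median r of 0.87 among themselves, the IFIT genes 0.81 and the OAS genes 0.51. Iigp1 had the highest median r with the other members, 0.83, and Oas2 the lowest, 0.23. These correlations describe livers that share library and depth, and the r of 0.97 between Ifit3 and Ifit3b and 0.96 between Igtp and Irgm2 belong to pairs that share sequence or exon bases. In the heat map of correlations Oas1g, Oas2 and Oas3 form pale rows across an otherwise red field.

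**Figure D5:**
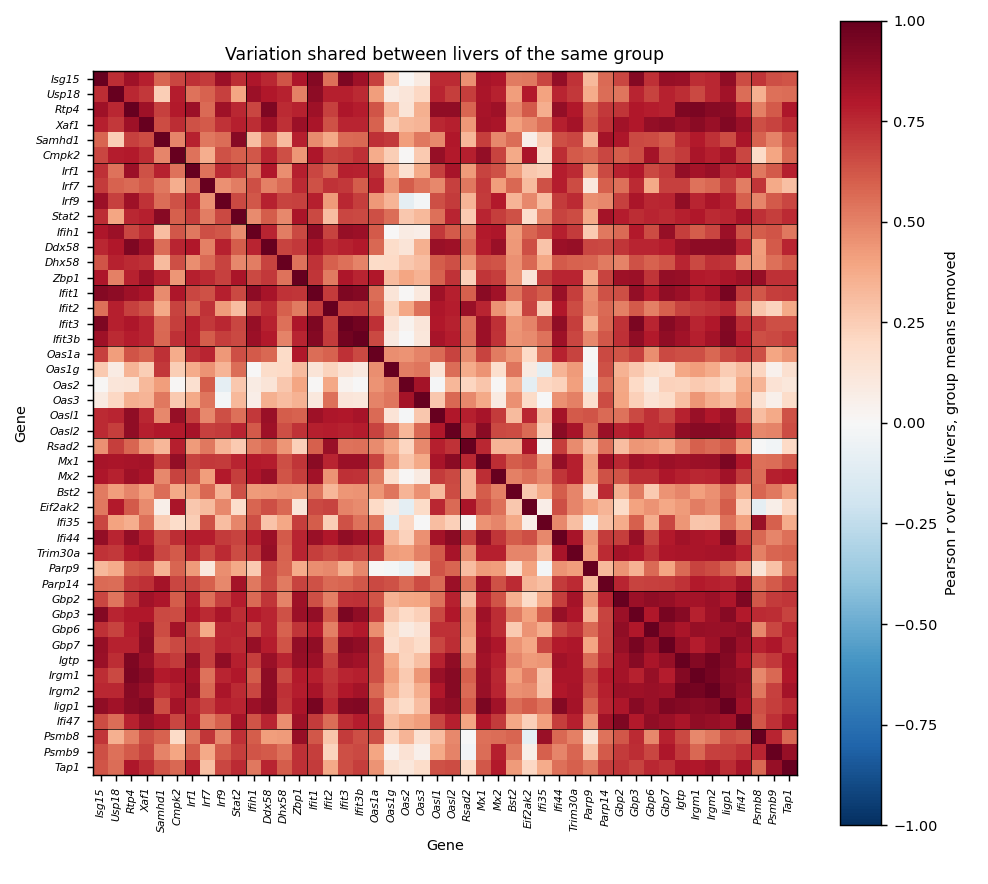
Pearson r between interferon response genes over 16 livers after removing each group's mean, in the order of roles, from -1 (blue) to 1 (red). Most cells are red (71.8% of pairs above 0.5), while Oas2 has a median r of 0.23 with the other members.

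A further list of 70 pathway genes outside the 46 covers ligands, receptors, signalling and related targets, of which 60 were in both tables. Interferon ligands were close to the detection limit of whole liver: Ifng had 25 counts in all 16 livers together and at most 4 in any, and Ifnk had 4 in all. The listed alpha, beta, epsilon and lambda interferon genes had no row in these tables. Receptors and kinases, which pass on the signal, had 0 of 9 called by knockout in females and 0 of 8 in males; Ifnar1, a chain of the type I receptor, was at 39.3 ± 1.44 CPM in floxed and 45.0 ± 2.73 in LKO females (SD, n = 4; 0.19 ± 0.07, adjusted p = 0.108).

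In males 0 of the 55 pathway genes tested were called by edgeR and 0 by limma-voom. DESeq2 called 2, beside 3.37% of all genes. At an unadjusted p under 0.05 in edgeR, 8 were lower and 0 higher, beside 6.46% and 5.82% of all genes. In females 9 of 56 were lower and 6 higher, beside 4.85% and 4.44% of all genes. Of the 5 genes on the list of interferon-induced chemokines, which also holds Cd274, 3 were called lower in females, and all 3 encode ligands that draw T cells through CXCR3. Cxcl11 fell from 10.3 ± 0.636 to 5.70 ± 0.867 CPM in females (-0.85 ± 0.12, adjusted p = 0.00626), a call kept in all 8 leave-one-out fits. Cxcl9 fell from 14.5 ± 4.47 to 4.88 ± 3.10 CPM (-1.57 ± 0.38, adjusted p = 0.0343), and Cxcl10 from 6.35 ± 1.61 to 2.56 ± 1.08 (-1.31 ± 0.29, adjusted p = 0.0258), and these calls were lost in 5 and 4 of the 8 fits respectively. Class I antigen presentation had 5 of 11 genes called lower in females: H2-K1, H2-Q4, H2-T23, Psme1 and Psme2. These female calls were lost in 6, 5, 1, 6 and 6 of the 8 leave-one-out fits respectively. The MHC class I gene H2-T23 was called over both sexes at -0.41 ± 0.06 (adjusted p = 0.000902) and B2m, the light chain of class I, at -0.31 ± 0.06 (adjusted p = 0.00636), both kept in all 16 leave-one-out fits. Over both sexes 9 pathway genes were lower and 2 higher, beside 4.5% and 4.05% of all genes.

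The 6 higher in females were Socs3, Ptpn2, Ikbke, Ticam1, Traf3 and Irf2bp2, and their female calls were lost in 0, 3, 4, 5, 5 and 6 of the 8 leave-one-out fits respectively. Socs3, an inhibitor of cytokine signalling through Janus kinases, rose from 27.6 ± 2.21 CPM (25.3 to 29.8) in floxed to 63.2 ± 17.1 (49.2 to 86.9) in LKO females (1.19 ± 0.17, adjusted p = 0.00579). In males it was at 11.6 ± 3.31 and 7.75 ± 1.57 CPM (-0.58 ± 0.20, adjusted p = 0.253). The female and male effects on Socs3 differed by 1.77 ± 0.28 (adjusted p = 0.00475), and that held in all 16 leave-one-out fits. Ptpn2, a phosphatase that acts on Janus kinases, rose from 10.7 ± 0.569 to 16.5 ± 2.57 CPM in females (0.62 ± 0.12, adjusted p = 0.0161). It stood at 11.6 ± 0.585 and 11.3 ± 0.596 CPM in males, and the effects differed by 0.65 ± 0.14 (adjusted p = 0.0161). Socs1, another inhibitor on the pathway list, went the other way. It was called lower over both sexes (-0.76 ± 0.20, adjusted p = 0.0288), a call lost in 8 of 16 leave-one-out fits. The inhibitors Ptpn2 and Ptpn11 were called higher over both sexes, at 0.29 ± 0.07 and 0.17 ± 0.05. Those calls were lost in 0 and 14 of 16 leave-one-out fits.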

How the data were processed

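The authors deposited 1 table of raw counts per gene for each sex, 8 libraries each, from directional polyA libraries per the labels; the build was mm10, per the submitters' processing notes, and the aligner, the counter and the strand setting are not given in the sources used here. Columns were matched to mice by the mouse numbers in the labels. Identifiers without a gene symbol (26 and 28) held 0.0289% and 0.0349% of the counts. From these counts edgeR 4.0.16 in R 4.3.3 was run within each sex and over all 16 libraries (filterByExpr with a minimum count of 10 and total of 15, TMM, quasi-likelihood F-test, two-sided, Benjamini-Hochberg over all genes, called at adjusted p under 0.05). The SE is the log2 fold change divided by the root of F. CPM were scaled by TMM over all 16 libraries. DESeq2 1.42.0, limma-voom (limma 3.58.1), other scalings and filters and left-out libraries were alternatives. The fits were also run on simulated counts with known changes. Those counts were drawn independently for each gene and library with a common dispersion. They therefore do not cover shifts that many genes share within single livers.

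Members and lists were chosen with earlier results of these data known. The values of 1 pathway gene, which stays in the counts, are not reported here. Values per liver are given for members called in any comparison (the 12 with the smallest adjusted p) and for the 2 with the smallest p in each role class. Positions of exons came from GENCODE vM21 (the same build) and promoters from RefSeq. The number of mice, 4 per group, limits the precision.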

Additional observations from a re-analysis of the deposited data

Results flagged for a closer look

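In 3 of the 96 groups of 4 livers examined among the 24 genes with values per liver, 1 liver lay far from the others relative to its group's range. Chance gives about 1 in 20, a share that the 3 groups do not exceed. Irf1 was at 62.3 CPM in female floxed 1, where the other floxed females were between 48.6 and 50.6. Ifit3 was at 25.5 CPM in female floxed 4, where the others were between 37.1 and 38.4. Oasl1 was at 21.7 CPM in female floxed 3, where the others were between 15.5 and 15.6. All 3 fall in the floxed females. The Ifit3 value of female floxed 4 narrows the gap to the LKO livers. The Irf1 value of female floxed 1 and the Oasl1 value of female floxed 3 widen it.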

How the results depend on the processing

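The number of members called lower in females was 3 with all livers, beside 4.85% of all genes. It was 11 with DESeq2 (7.91% of all genes) and 5 with limma-voom (4.89%). Without female floxed 4 and LKO 7 it was 22 (9.79%). The count was 6 without the filter on low counts and 9 in the fit of all 16 libraries. Leaving out 1 liver in turn gave 0 to 19, the latter without LKO 7 (7.78% of all genes). Over both sexes the count of 3 (4.5% of all genes lower) became 10 with DESeq2 (6.11%). It became 23 without female floxed 4 and LKO 7 (9.07%), with 0 to 21 when 1 liver was left out. That count was 10 without male floxed 2 and 10 without female floxed 4. The difference of the effects was called for 0 members with all livers (4.42% of all genes). Without female floxed 4 and LKO 7 it was called for 9, beside 6.77% of all genes called in that direction. When 1 liver was left out the count was 0 to 6, the latter without LKO 7 (4.93%). Males had 0 calls under all 16 alternatives. Floxed females against males had 11 calls, and the counts under its alternatives were within 1.5 times that. The calls over both sexes of Ifit1 and Irgm1 were also lost without male floxed 1 and 2, and that of Gbp6 with limma-voom. The cause of these shifts was not tested. Without male floxed 1 and 2, the male value of Psmb9 turned from -0.02 to 0.01, and without female floxed 4 and LKO 7 the female value of Mx2 from 0.02 to -0.26. Leaving out 1 liver gave male values of -0.08 to 0.01 for Ifih1, -0.21 to 0.02 for Oas2, -0.40 to 0.14 for Gbp2, -0.32 to 0.01 for Gbp3 and -0.08 to 0.04 for Psmb9, and female values of -0.16 to 0.00 for Stat2 and -0.13 to 0.15 for Mx2. Of 768 alternatives over 43 results of single members, 651 kept direction and side of the threshold, 76 lost the call, 26 gained one and 15 changed sign.

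Males and females share replicate numbers, but the numbers did not pair the livers: r of same-numbered livers ran from -0.12 to 0.13, and 2 of 8 correlated best with their own number. With the replicate number as a block, 0 members were called for the difference of the effects and 9 between floxed females and males. At these depths Ifng and Ifnk were below the filter, so a difference in them was not detectable.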

Other observations

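Many of the 46 genes sit side by side in the genome (GENCODE vM21, GRCm38). Ifit1, Ifit2, Ifit3 and Ifit3b span 99.3 kb on chromosome 19, Oas1a, Oas1g, Oas2 and Oas3 span 177 kb on chromosome 5, Gbp2, Gbp3 and Gbp7 span 108 kb on chromosome 3, and Psmb8, Psmb9 and Tap1 span 19.5 kb on chromosome 17. Female log2 fold changes within the Gbp cluster were -0.93, -1.12 and -0.99, those of Ifit2, Ifit3 and Ifit3b were -0.41, -0.83 and -0.75, and within the Oas cluster they ran from 0.11 to 0.25. No test was made over clusters.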
